A study of Mus musculus with 6 samples.

Results

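The 9 genes described here encode enzymes and secreted proteins of the cornifying epidermis. They are 3 transglutaminases (Tgm1, Tgm3, Tgm5), 2 proteases (Casp14, Asprv1) and 4 secreted proteins (Cdsn, Sbsn, Dmkn, Krtdap), and were taken by gene name from a table of 23726 gene models in which each name occurred once. All 9 models were measured in each of the 6 mouse libraries and all 9 passed the filter on low counts. The study follows skin carcinogenesis in which DMBA, a mutagen, is followed by TPA, a tumour-promoting phorbol ester, on the skin. Cultured mSCC-38 cells, described by the submitters as highly tumorigenic, and mSCC-20 cells, described as non-tumorigenic, came from DMBA/TPA tumours and gave 1 library each. The biopsies were 1 DMBA/TPA-induced tumour, 2 distinct DMBA/TPA-induced papillomas and 1 healthy skin. The labels give no genotype, strain, sex, age or treatment time, and do not say whether lesions or cultures share a mouse. The p-values rest on the spread between the 2 papillomas, moderated by that of other genes, and may miss variation between animals.

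In stratified epidermis, keratinocytes that leave the basal layer stop dividing and end as flat dead corneocytes. Transglutaminases cross-link proteins under the plasma membrane into the cornified envelope, and proteases process filaggrin, whose products bind water in the outer layer. Corneodesmosin glues the corneocytes together, and suprabasin, dermokine and keratinocyte differentiation-associated protein are made by suprabasal keratinocytes and released.

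Total counts ranged from 25140489 to 42992597 per library, and a count of 0 allows up to 3 counts, or 0.0604 to 0.141 CPM (counts per 1000000, scaled by TMM, a factor that corrects for library composition). RNA integrity numbers ran from 7.5 in skin to 9.6 in mSCC-38. Papillomas 1 and 2 were not copies of 1 library (chi-square per degree of freedom 64.5, 15636 genes). The 5 basal keratinocyte markers (Krt5, Krt14, Trp63, Itga6, Itgb4) had counts in all libraries and summed to 28314 CPM in the tumour, 34141 and 25679 CPM in the papillomas and 5849 CPM in skin, and to 9902 CPM in mSCC-38 and 16771 CPM in mSCC-20. Of 6 suprabasal markers, 5 were matched (Krt1, Krt10, Krt2, Lor, Ivl), none of them at 0 in any library, and their sum was 423 CPM in the tumour, 24215 and 20361 CPM in the papillomas and 7582 CPM in skin, and 26.4 CPM in mSCC-38 and 83.5 CPM in mSCC-20. The 5 leukocyte markers (Ptprc, Cd3e, Itgam, Cd68, Cd14) summed to 265 CPM in the tumour, 104 and 94.0 CPM in the papillomas and 67.3 CPM in skin, and to 26.3 CPM in mSCC-38 and 6.92 CPM in mSCC-20. Cd3e was at 0 in both cultures, while Cd14 had 13.4 CPM and Cd68 12.8 CPM in mSCC-38, against 7.57 and 13.3 CPM in skin. The 6 fibroblast markers summed to 4309 CPM in the tumour, 4859 and 3969 CPM in the papillomas and 3256 CPM in skin, and to 190 CPM in mSCC-38 and 12.0 CPM in mSCC-20. Most of the mSCC-38 sum was Col1a1 at 122 CPM and Pdgfra at 33.3 CPM. Skeletal muscle markers, 5 in number, summed to 566 CPM in the tumour, 1588 and 961 CPM in the papillomas and 8395 CPM in skin, which had the most muscle RNA and the least basal keratinocyte RNA of the biopsies. The part of these differences in the results below was not tested. In bulk RNA, fewer cells of a type and less RNA per cell cannot be told apart.

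By edgeR all 9 genes were called higher in papilloma than in skin, where 11.9% of genes tested were. Relative to papilloma 8 of 9 were called lower in the tumour, where 10.6% of genes tested were. The ninth, Tgm1, was also lower but did not pass (edgeR adjusted p = 0.0578). Set against skin, the tumour held less RNA of those 8 genes and more of Tgm1. In the cultured cells Sbsn, Dmkn and Krtdap were at 1.03% to 6.46% of their papilloma 1 level, and Cdsn and Tgm3 were at background. The 9 genes took 2.42% and 2.03% of all counts in the papillomas, against 0.665% in skin, and 0.225% in the tumour. Their share was 0.0318% in mSCC-38 and 0.0473% in mSCC-20.

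**Figure D1:**
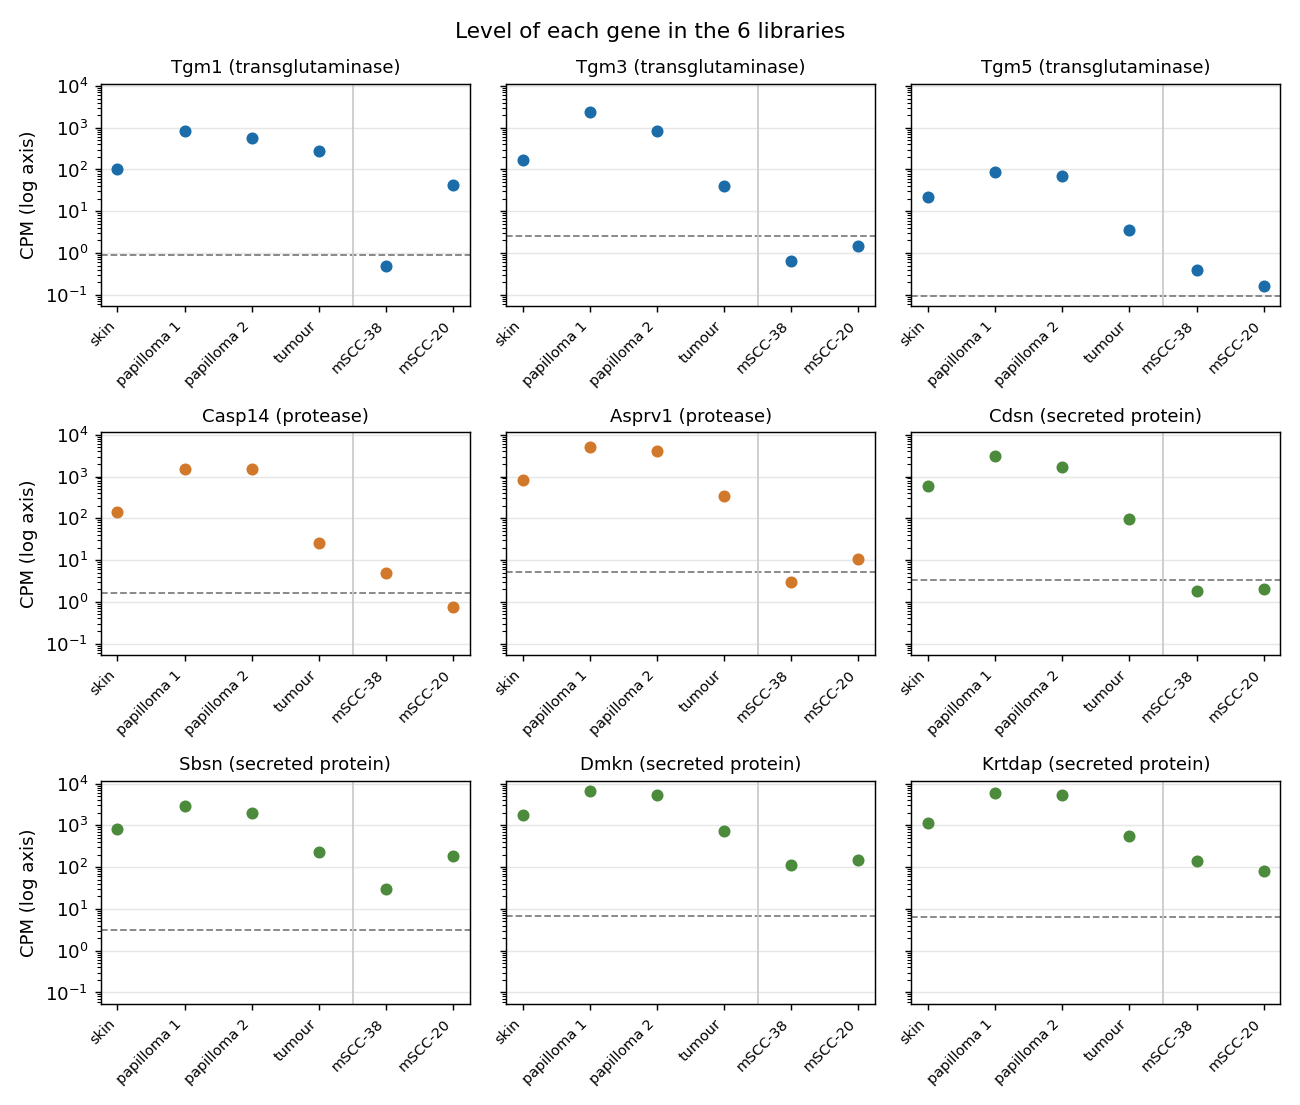
Level of each gene in CPM (log axis) in the 6 libraries, 1 point per library; the vertical line parts biopsies from cultures. The dashed line is the background bound, 0.106% of the gene's highest library. Both papilloma points lie above skin for every gene, and Tgm1 has its tumour point above skin, at 283 against 101 CPM.

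Papilloma, the benign lesion, was compared first with healthy skin. By edgeR's quasi-likelihood test 9 of the 9 genes were higher in papilloma and 0 lower (by DESeq2, and at unadjusted p under 0.05, likewise 0 lower), where 11.9% of the 16353 genes tested were called higher and 14.1% lower. Their median log2 fold change was 2.32, beside -0.06 over all genes tested. Under scaling by total counts alone the calls over all genes changed from 1946 higher and 2305 lower to 1015 higher and 3484 lower, and the median over all genes moved to -0.48. All 9 genes were still called higher under that scaling. The 1 residual degree of freedom comes from the 2 papillomas, and the lone skin library is assumed to vary like them.

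Among the transglutaminases, Tgm1, the membrane-bound enzyme that is mutated in human lamellar ichthyosis, had 848 and 554 CPM in papillomas 1 and 2, against 101 CPM in skin. Its log2 fold change was 2.79 with an SE of 0.38 (adjusted p by edgeR 0.0138), SE being the error given with each fold change below. Tgm3, which acts in the upper epidermis and the hair follicle, had 2429 and 844 CPM in papillomas 1 and 2, against 167 CPM in skin. Both papillomas lay above skin, and papilloma 1 lay far above papilloma 2. The log2 fold change of Tgm3 was 3.30 ± 0.76 (edgeR adjusted p = 0.0393). It depended on the papilloma taken, with a log2 ratio of 2.34 without papilloma 1 and 3.86 without papilloma 2. Tgm5, whose human counterpart is mutated in acral peeling skin syndrome, was the least abundant of the 9 genes per length in all biopsies. It had 87.9 and 70.3 CPM in the papillomas, against 22.3 CPM in skin, with log2 fold change 1.83 ± 0.20 (edgeR adjusted p = 0.00966).

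Casp14 and Asprv1 encode proteases that take part in filaggrin processing, a caspase outside the cell death pathways and a retroviral-like aspartic protease. Casp14 had 1553 and 1541 CPM in papillomas 1 and 2, against 140.1 CPM in skin. The papillomas were almost equal, and the log2 fold change of 3.46 ± 0.30 (edgeR adjusted p = 0.00666) was the highest of the 9. Without papilloma 2 the log2 ratio of Casp14 was 3.47, under the 3.86 of Tgm3. Asprv1 had 5046 and 4177 CPM in the papillomas, against 829 CPM in skin, with log2 fold change 2.48 ± 0.37 (edgeR adjusted p = 0.0163). Per length Asprv1 was the leading enzyme gene, with 2811 and 2588 RPKM (reads per kilobase and per 1000000 reads, as deposited) in the papillomas and 652 RPKM in skin.

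The secreted protein genes rose by log2 fold changes of 1.60 to 2.32, and the enzyme genes by 1.83 to 3.46. Cdsn, which encodes corneodesmosin, had 3157 and 1698 CPM in papillomas 1 and 2, against 577 CPM in skin (log2 fold change 2.07 ± 0.49, edgeR adjusted p = 0.0411). Sbsn, which encodes suprabasin, had 2911 and 1975 CPM in the papillomas, against 804 CPM in skin (log2 fold change 1.60 ± 0.38, edgeR adjusted p = 0.0408). Dmkn, the dermokine gene, had 6497 and 5281 CPM in the papillomas, against 1773 CPM in skin (log2 fold change 1.73 ± 0.38, edgeR adjusted p = 0.0346). In none of these did the skin value reach the lower papilloma. Krtdap had 6012 and 5372 CPM in the papillomas, against 1143 CPM in skin, and log2 fold change 2.32 ± 0.37 (edgeR adjusted p = 0.0182). Per length it ranked 2 and 1 among all gene models in papillomas 1 and 2 and 5 in skin.

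The papillomas themselves differed most in Tgm3, which was 2.88-fold higher in papilloma 1 than in papilloma 2. Of genes with at least 10 CPM in 1 of these libraries, 0.652% were at least 2-fold higher in papilloma 1 and 1.91% at least 2-fold lower, and of the 9 genes Tgm3 alone passed either bound. Cdsn was 1.86-fold higher in papilloma 1, Tgm1 1.53-fold and Sbsn 1.47-fold. Tgm5, Dmkn, Asprv1 and Krtdap were 1.12- to 1.25-fold higher, and Casp14 was almost equal at 1.01-fold. Under scaling by total counts alone Casp14 was at 0.906-fold and Krtdap at 1.01-fold. Of 7 markers of the inner root sheath, a hair follicle layer, 6 were matched (Krt71, Krt25, Krt27, Krt28, Tchh, Krt73). Their sum was 29.8 CPM in papilloma 1 and 5181 CPM in papilloma 2, against 17574 CPM in skin, so of these libraries papilloma 1 had the most Tgm3 and the least hair RNA. Its part in the level of Tgm3 was not tested.

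The tumour was compared next with papilloma, the benign lesion. By edgeR's quasi-likelihood test 8 of 9 genes were lower in the tumour and 0 higher (DESeq2, and unadjusted p under 0.05, each gave 9 lower and 0 higher), where 10.6% of genes tested were called lower and 11.9% higher. The median log2 fold change of the 9 genes was -3.78, beside -0.02 over all genes tested. Total-count scaling moved that overall median to 0.12 and left 8 genes called lower. As for skin, the lone tumour library is assumed to vary like the papillomas.

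Casp14 had 25.9 CPM in the tumour, against 1547 ± 8.21 CPM in papilloma (SD, n = 2), and log2 fold change -5.90 ± 0.34 (edgeR adjusted p = 0.0023). Tgm3 had 39.2 CPM in the tumour, against 2429 and 844 CPM in papillomas 1 and 2 (log2 fold change -5.38 ± 0.86, edgeR adjusted p = 0.0169), and its log2 ratio was -4.41 without papilloma 1 and -5.94 without papilloma 2. Tgm5 fell to 3.48 CPM in the tumour, or 147 counts, against 79.1 ± 12.4 CPM in papilloma (log2 fold change -4.51 ± 0.24). For each of these the tumour lay under both papillomas and under skin. Asprv1 fell to 337 CPM in the tumour, against 4612 ± 614 CPM in papilloma, a log2 fold change of -3.78 ± 0.40.

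Of the secreted protein genes, Cdsn fell most, to 95.2 CPM in the tumour, against 2427 ± 1032 CPM in papilloma (log2 fold change -4.67 ± 0.57, edgeR adjusted p = 0.00916). Sbsn had 224 CPM in the tumour, against 2443 ± 662 CPM in papilloma (log2 fold change -3.45 ± 0.42). Dmkn had 743 CPM in the tumour, against 5889 ± 859.7 CPM in papilloma (log2 fold change -2.99 ± 0.41, edgeR adjusted p = 0.0117). These genes lay in the tumour under both papillomas, and so did Krtdap, at 542 CPM in the tumour, against 5692 ± 453 CPM in papilloma (log2 fold change -3.39 ± 0.39). Of the 5 matched suprabasal markers 3 fell in the tumour and 0 rose by edgeR (0 rose and 4 fell unadjusted and by DESeq2), with log2 fold changes of -6.70 ± 0.52 for Krt1, -6.67 ± 0.57 for Krt10 and -4.97 ± 0.45 for Lor. Krt2 at -1.41 ± 0.61 and Ivl at -0.74 ± 0.21 did not pass (adjusted p by edgeR 0.165 and 0.0679). Other markers rose in the same comparison. Of the 5 leukocyte markers 3 rose (Itgam, Ptprc, Cd14), and of the 5 epithelium markers 2 rose, Krt8 by 5.99 ± 0.29 and Krt18 by 4.07 ± 0.16 on the log2 scale. Krt8 had 34.5 CPM in the tumour, against 0.470 and 0.602 CPM in the papillomas, and Krt18 had 92.7 CPM in the tumour, against 5.26 and 5.73 CPM in the papillomas. Their part in the falls of the 8 genes was not tested.

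Tgm1 stood apart from the other 8. It had 283 CPM in the tumour, against 848 and 554 CPM in papillomas 1 and 2, and its log2 fold change of -1.31 ± 0.35 did not pass (edgeR adjusted p = 0.0578). That call was close to the threshold, since adjusted p was 0.0304 with no filter on low counts, 0.0427 with all 6 libraries in the fit and 2.94e-04 by DESeq2, within a range over all alternatives that ended at 0.056. Under each of these its change stayed smaller than those of the other 8 genes, at -1.16 to -1.34 on the log2 scale.

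**Figure D2:**
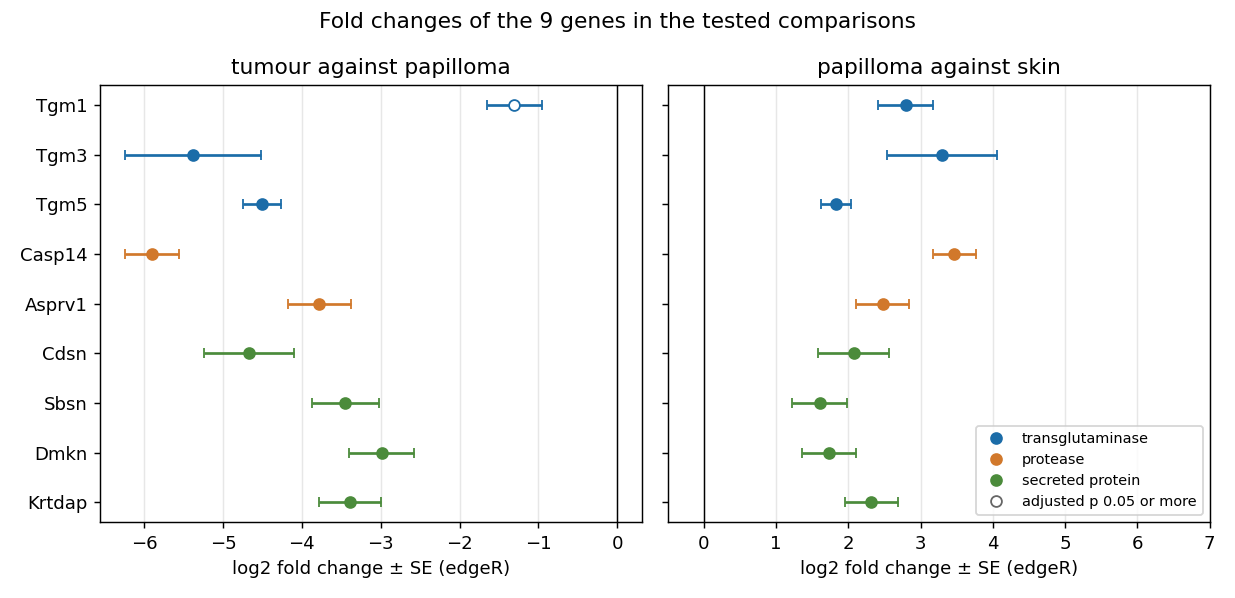
edgeR log2 fold change of each gene with its SE, tumour against papilloma on the left and papilloma against skin on the right; colour gives the gene class and an open point an adjusted p of 0.05 or more. All 9 points lie right of 0 against skin, and in the tumour Tgm1, at -1.31, lies nearest to 0.

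Sbsn, Dmkn and Krtdap lie side by side on chromosome 7 (mm9) on the plus strand. Sbsn spans 31536490 to 31541153, Dmkn 31548775 to 31566085 and Krtdap 31572924 to 31576102, with 7621 bases between the first pair, 6838 between the second and no other model in between. Counts are per gene model, so the 4 transcripts of Dmkn, 3 of Tgm1 and 2 of Sbsn were not separated. Of 10 other models that start within 100000 bases of one of them, 6 were tested. In papilloma against skin 2 of these 6 rose (Tmem147 and Gapdhs) and 0 fell by edgeR, as against 3 of the 3 members, and in tumour against papilloma 3 fell (Atp4a, Tmem147, Gapdhs) and 1 rose (Cd22). Gapdhs, Atp4a and Cd22 were no higher than 2.77 CPM in any biopsy. Tmem147, a membrane protein gene, had 117.8 and 116 CPM in the papillomas, against 67.7 CPM in skin (log2 fold change 0.79 ± 0.17, edgeR adjusted p = 0.034). Gapdhs, encoding a sperm form of a glycolytic enzyme, had 2.07 and 2.16 CPM in the papillomas, against 0.322 CPM in skin (log2 fold change 2.70 ± 0.55, edgeR adjusted p = 0.03). The plot of neighbours by distance shows the 3 members at -2.99 to -3.45 in tumour against papilloma, while Haus5 at -0.24 ± 0.26 and Ffar2 at -0.81 ± 0.40 did not pass.

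**Figure D3:**
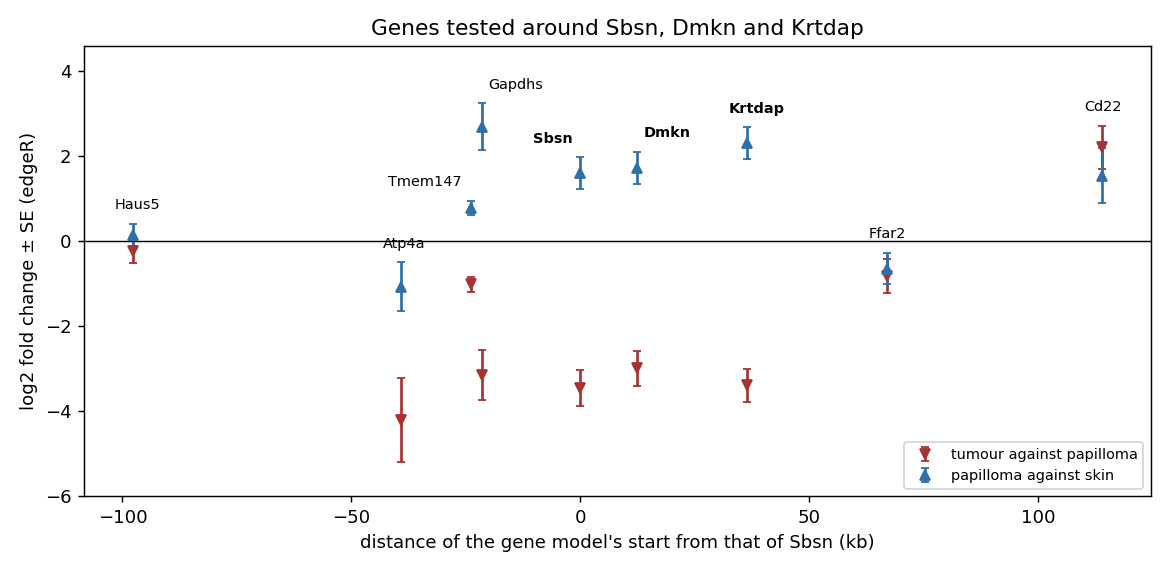
edgeR log2 fold change with its SE of each tested gene around Sbsn, Dmkn and Krtdap (bold), by distance of its start from that of Sbsn in kb; down triangles are tumour against papilloma and up triangles papilloma against skin. The 3 members lie between 1.60 and 2.32 in papilloma and between -2.99 and -3.45 in the tumour.

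Promoter windows from 250 bases before to 50 after the transcript start were read from RefSeq (GRCm38.p6) and matched for 9 of 9 genes, in 13 windows. All 9 genes rose in papilloma and had a negative log2 fold change in the tumour, so moving together was not particular to the 3 neighbours. Windows are shown for these 3, with the AP-1 core TGANTCA, which reads alike on both strands, in capitals.
Sbsn, chr7:30751221-30751520, plus strand: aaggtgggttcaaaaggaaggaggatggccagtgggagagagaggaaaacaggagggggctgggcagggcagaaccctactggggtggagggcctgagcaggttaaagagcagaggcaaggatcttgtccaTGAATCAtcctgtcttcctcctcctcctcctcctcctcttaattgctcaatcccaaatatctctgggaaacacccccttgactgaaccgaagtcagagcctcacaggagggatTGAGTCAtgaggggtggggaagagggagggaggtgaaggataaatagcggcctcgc
Dmkn, chr7:30763506-30763805, plus strand: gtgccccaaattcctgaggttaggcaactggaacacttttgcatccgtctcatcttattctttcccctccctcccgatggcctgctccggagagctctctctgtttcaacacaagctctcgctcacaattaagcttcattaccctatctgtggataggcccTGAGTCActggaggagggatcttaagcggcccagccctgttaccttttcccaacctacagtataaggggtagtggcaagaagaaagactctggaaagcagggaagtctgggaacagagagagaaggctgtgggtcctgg
Krtdap, chr7:30787655-30787954, plus strand: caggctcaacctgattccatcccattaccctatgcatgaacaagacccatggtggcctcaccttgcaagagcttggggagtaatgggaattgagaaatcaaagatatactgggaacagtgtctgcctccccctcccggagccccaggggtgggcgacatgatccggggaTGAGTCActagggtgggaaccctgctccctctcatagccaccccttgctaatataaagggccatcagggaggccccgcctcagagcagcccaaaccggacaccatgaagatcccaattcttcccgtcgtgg
The core began 119 and 6 bases before the start in Sbsn, 89 in Dmkn and 81 in Krtdap. The windows of 2 further starts of Dmkn held it 91 and 82 bases before. The window with the core at 91, chr7:30763508-30763807, overlaps the one shown, and its core is the same stretch of DNA. The core was in 5 of the 13 windows and in 7.81% of 32851 windows of this length. None of the windows of the other 6 genes held it. AACNGGTT, a Grainyhead-like core, was in 1 of the 13 windows, that of Tgm5, and in 2.09% of all windows. GGGTG, a Kruppel-like core, was in 9 of the 13 windows, spread over 8 of the 9 genes, and in 57.5% of all windows. TATAAA was in 2 of the 13 windows, those of Tgm3 and Krtdap, and in 13.6% of all. Both strands were searched, and in 0 of the 13 windows did matches of different motifs overlap. The motifs were chosen with the results known. A match describes letters and shows no bound factor.

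The tumour and skin gave 1 library each, so their difference has no replicate check and no p-value. By a rule of size, at least 4-fold with 0.5 CPM added to each side and at least 10 CPM in the higher library, 4 of the 9 genes were lower in the tumour than in skin (Tgm3, Tgm5, Casp14 and Cdsn) and 0 higher. Of all genes with at least 10 CPM, 9.14% were lower and 5.21% higher by this rule, and the median log2 ratio was -1.84 over the 9 genes and 0.10 over all. Intervals below are exact Clopper-Pearson intervals at 95% and cover counting error only. Tgm1 was 2.80-fold higher in the tumour (interval 2.71 to 2.89), at 283 CPM in the tumour and 101 CPM in skin. Cdsn was 6.07-fold lower in the tumour (5.87 to 6.27), at 95.2 against 577 CPM in skin. Krtdap was 2.11-fold lower, Dmkn 2.39-fold, Asprv1 2.46-fold and Sbsn 3.59-fold. For each of the 9 genes the gap between tumour and skin was larger than the ratio between the papillomas, and its direction held under total-count scaling and DESeq2's size factors. Tgm1 was then 2.30-fold and 2.71-fold higher in the tumour.

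The make-up of the transglutaminase RNA differed between the biopsies. Per length, Tgm1 gave 89.6% of the summed RPKM of the 3 genes in the tumour, 31.1% and 44.2% in papillomas 1 and 2 and 40.6% in skin. The summed RPKM was 104.4 in the tumour and 100.3 in skin. It was made up mostly of Tgm1 in the tumour and of Tgm3 (48.8%) and Tgm1 in skin. Deposited RPKM is scaled by library total without the TMM factor, which was 0.982 for the tumour and 1.20 for skin. The likeness of the 2 sums therefore depends on that scaling, while the shares within a library do not. Among the biopsies, the 3 genes summed to 777 and 397 RPKM in papillomas 1 and 2.

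Enzyme genes were set against secreted protein genes by summed RPKM. The 5 enzyme genes summed to 4158 and 3614 RPKM in papillomas 1 and 2, against 825 RPKM in skin, and the 4 secreted protein genes to 16067 and 15073 RPKM in the papillomas, against 4736 RPKM in skin. The enzyme share of both sums was 20.6% and 19.3% in the papillomas and 14.8% in skin, a log2 ratio of enzymes over secreted proteins that was higher by 0.52 in papilloma. In the tumour the sums were 333 RPKM for enzymes and 1665 RPKM for secreted proteins, an enzyme share of 16.7% and a log2 ratio lower than in papilloma (difference -0.32). The SD of this ratio between the papillomas was 0.08. These sums are led by single genes, since Asprv1 gave 65.3% to 79.1% of the enzyme sum and Krtdap 64.5% to 75.1% of the secreted sum in the biopsies. The share was 1.17% in mSCC-38 and 6.24% in mSCC-20.

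**Figure D4:**
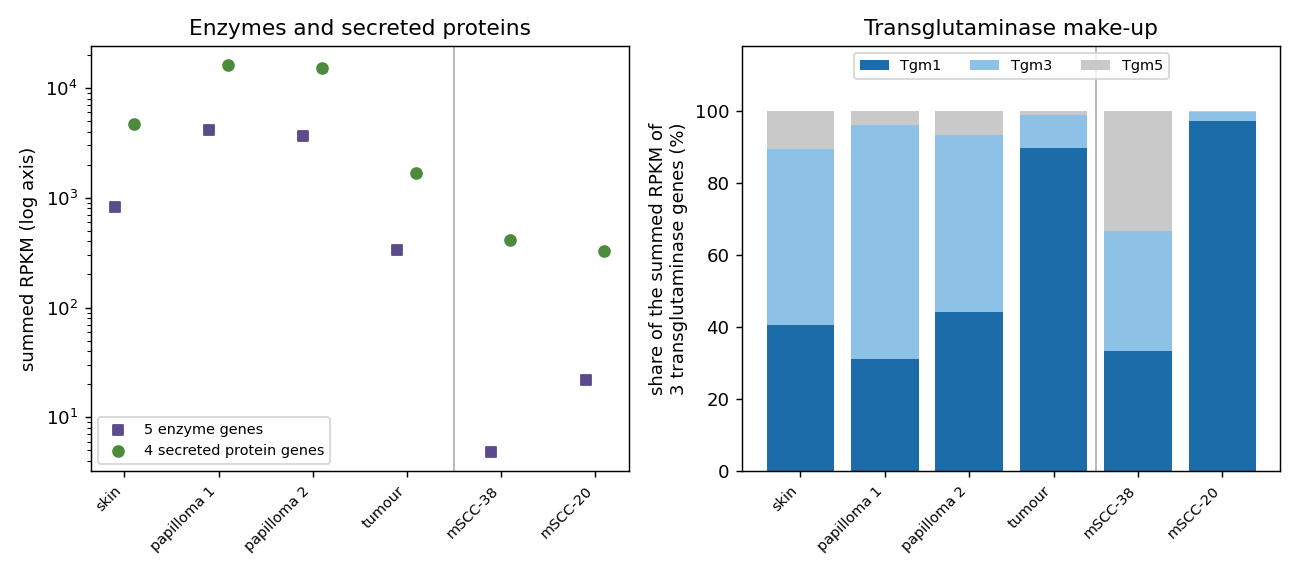
Left, summed RPKM (log axis) of the 5 enzyme genes (squares) and the 4 secreted protein genes (circles) per library; right, share of Tgm1, Tgm3 and Tgm5 in their summed RPKM. The gap on the left is widest in mSCC-38, where enzymes sum to 4.88 RPKM; its bar on the right rests on 16, 21 and 13 counts.

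Levels in the cultures were read against a background taken from hair genes. The 19 hair genes with 500 CPM or more in skin were counted in papilloma 1, the tumour and the cultures at a median of 0.0446% to 0.0698% of their skin level, and an upper quartile no higher than 0.106%. A member at or under 0.106% of its highest library was read as background, a bound set after the data were seen. By it 5 of 9 genes were above background in mSCC-38 (Tgm5, Casp14, Sbsn, Dmkn, Krtdap) and 6 in mSCC-20 (Tgm1, Tgm5, Asprv1, Sbsn, Dmkn, Krtdap). Tgm5 passed on only 13 counts in mSCC-38 and 5 in mSCC-20, since the bound scales with each gene's highest library. Cdsn, at 1.77 CPM in mSCC-38 and 2.08 CPM in mSCC-20, was at background in both, and so was Tgm3.

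Between the cultures, which differ in their described tumorigenicity, 5 of the 9 genes had at least 10 CPM in 1 library. Of these, 2 were at least 4-fold lower in mSCC-38 than in mSCC-20 (Tgm1 and Sbsn) and 0 higher. Over all genes 3.31% were lower and 6.8% higher. Tgm1 had 16 counts in mSCC-38, or 0.481 CPM, against 1318 counts or 42.8 CPM in mSCC-20, and was 89.0-fold lower (interval 54.6 to 156). The mSCC-38 level is at background, so that ratio is not exact. Sbsn had 30.05 CPM in mSCC-38 and 188 CPM in mSCC-20 and was 6.26-fold lower (5.86 to 6.71). Dmkn was 1.33-fold lower, at 114 CPM in mSCC-38 and 152 CPM in mSCC-20, while Krtdap was 1.78-fold higher (1.70 to 1.87), at 140.3 CPM in mSCC-38 and 78.7 CPM in mSCC-20. Of the 3 secreted protein genes on chromosome 7, then, Sbsn was lower and Krtdap higher in mSCC-38. Dmkn was lower by little more than its 1.23-fold ratio between the papillomas. Casp14 had 161 counts in mSCC-38 (4.84 CPM), against 23 counts (0.747 CPM, at background) in mSCC-20. Asprv1 had 2.98 CPM in mSCC-38, at background, and 10.5 CPM in mSCC-20. Markers of epithelium in general (5 genes) summed to 204 CPM in mSCC-38 and 955 CPM in mSCC-20. Krt18, a keratin of simple epithelia, gave 167.7 CPM of the mSCC-38 sum and 305 CPM of the mSCC-20 sum. Krt8 had 30.7 CPM in mSCC-38 and 198 CPM in mSCC-20. The adhesion gene Cdh1 had 1.62 CPM in mSCC-38 and 195 CPM in mSCC-20. Epcam, also an adhesion gene, had 3.25 CPM in mSCC-38 and 196 CPM in mSCC-20, and Esrp1, an epithelial splicing factor gene, had 0.391 CPM in mSCC-38 and 60.9 CPM in mSCC-20. Cdh1, Epcam and Esrp1 were thus far lower in mSCC-38, and Krt18 less so. The part of these markers in the lower Tgm1 and Sbsn of mSCC-38 was not tested. Tgm5 rested on 13 counts in mSCC-38 and 5 in mSCC-20, with an interval of the ratio that spans 1 (0.805 to 8.62).

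Against the tumour biopsy, 7 of the 8 genes with at least 10 CPM were at least 4-fold lower in mSCC-38, where 10.4% of genes were lower and 2.84% higher. The exception was Krtdap, 3.86-fold lower. In mSCC-20 it was also 7 of 8, where 14.3% of genes were lower and 6.11% higher. Here the exception was Sbsn, at 188 CPM in mSCC-20 and 224 CPM in the tumour, a 1.19-fold difference that is within the 1.47-fold ratio between the papillomas. Fibroblast markers were also lower in both cultures than in the tumour, as given above, so growth in culture and a different mix of cells cannot be told apart here.

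**Figure D5:**
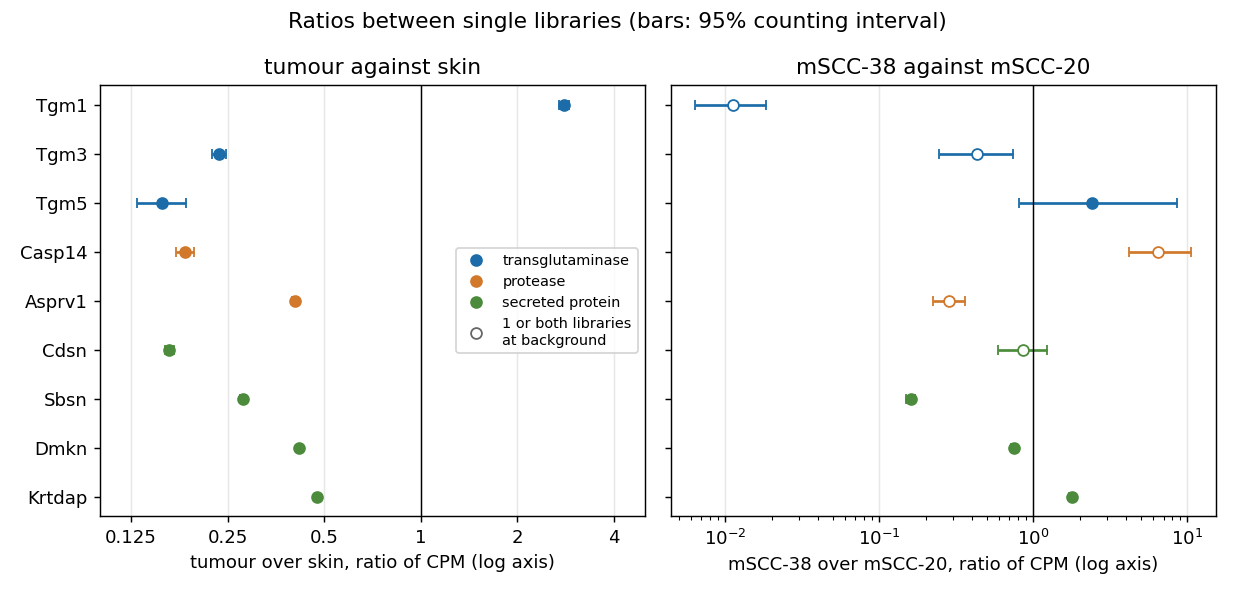
Ratio of CPM between single libraries (log axis) with its 95% counting interval, tumour over skin on the left and mSCC-38 over mSCC-20 on the right; open points have 1 or both libraries at background. Tgm1 is the 1 gene right of 1 on the left, at 2.80, and lies farthest left on the right.

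Ordered by level, 8 genes ran from papilloma through skin and tumour to the cultures, and Tgm1 from papilloma through tumour, skin and mSCC-20 to mSCC-38. Neighbours in this order that differed by no more than the papillomas did from each other were mSCC-20 and mSCC-38 for Tgm3 and Cdsn, and the tumour and mSCC-20 for Sbsn. Likeness between genes was measured as Pearson's r over the 6 libraries on log2 (CPM + 0.5), as a description; the libraries share high papillomas and low cultures, and no p is given. Among 11829 other genes with at least 10 CPM in 1 library, those most like Tgm1 were the plakophilin gene Pkp3, Ppp1r13l and the kinase gene Pim1 (0.995 to 0.992). Those most like Tgm3 were the barrier lipoxygenase gene Aloxe3, the carboxypeptidase gene Cpa4 and 2010109I03Rik (0.998 to 0.997). Dmkn was closest to the connexin gene Gja5, Lypd5 and Aadacl2, and Tgm5 to the sodium channel gene Scnn1a, the envelope gene Lce1d and Cyp2b10. The genes closest to Casp14 were the aquaporin gene Aqp9, Gm11992 and Golga4, and those closest to Asprv1 were Gpr111, Ephx3 and Tmem66. Cdsn was closest to Scamp2, Fam25c and Pla2g4f, Sbsn to Cyb561, Sypl and the binding protein gene Igfbp2, and Krtdap to Gm11992, Slc10a6 and Klhl18. Pearson's r takes no account of the size of a change. Scamp2 ran from 126 CPM in papilloma 1 to 58.1 CPM in mSCC-38, while Cdsn ran from 3157 to 1.77 CPM. The first 3 places are also close calls, since 5 genes for Tgm1 and 41 for Cdsn had r of at least 0.99.

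The remaining genes have these places in mm9. Tgm1 lies on chromosome 14, 56318846 to 56332329, and Casp14 on chromosome 10, 78174740 to 78181038, both on the minus strand. Tgm3 (129838110 to 129876135, plus strand) and Tgm5 (120871847 to 120911495, minus strand) share chromosome 2. Asprv1 lies on chromosome 6, 86578168 to 86579698, and Cdsn on chromosome 17, 35689073 to 35694125, both on the plus strand. None of the 9 models overlapped another model in the table.

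Other genes of cornification were taken from 6 lists chosen with earlier results known. Of 11 matched transglutaminase substrates and envelope genes, 6 rose and 1 fell in papilloma by edgeR (unadjusted 9 and 1, DESeq2 10 and 1; median log2 fold change 2.71), and 0 rose and 6 fell in the tumour by edgeR (unadjusted 0 and 7, DESeq2 0 and 8). The largest rises in papilloma were those of Sprr3, at 9.42 ± 1.496 on the log2 scale (7.22 without papilloma 1 and 9.56 without papilloma 2), and Rptn, the repetin gene, at 7.03 ± 0.56. Flg2, which encodes a filaggrin-like protein, fell by 2.05 ± 0.21. In the tumour Hrnr, the hornerin gene, was at -6.84 ± 0.36 and Flg2 at -6.38 ± 0.32. Reads of the Sprr family and of repeat-rich genes such as Hrnr could have been divided between near-identical copies, which leaves these values uncertain. The envelope scaffold genes Evpl and Ppl, chosen after their values were seen, did not pass in either comparison, with tumour against papilloma at -0.23 ± 0.30 and -0.04 ± 0.34.

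Of 6 other transglutaminase family genes tested, 0 rose and 4 fell in papilloma by edgeR (Tgm7, Tgm6, F13a1, Tgm2; DESeq2 gave 0 and 4, as did unadjusted p under 0.05). Tgm4 at -0.55 ± 0.89 and Epb4.2 at 0.49 ± 0.91 on the log2 scale did not pass. Tgm7 fell by 3.66 ± 0.46 on the log2 scale, to 0.471 ± 0.135 CPM in papilloma, against 6.08 CPM in skin; with 0.5 CPM added its log2 ratio was -2.63 without papilloma 1 and -2.91 without papilloma 2. Tgm6 fell by 2.18 ± 0.46 (-1.69 without papilloma 1 and -2.86 without papilloma 2). In the tumour 1 of 6 rose and 1 fell. Tgm2, the widely expressed tissue transglutaminase, rose by 1.33 ± 0.17 (edgeR adjusted p = 0.00973). It had 76.3 CPM in the tumour, against 30.4 ± 3.62 CPM in papilloma and 93.9 CPM in skin. Tgm6 was at -6.45 ± 0.76 on the log2 scale in the tumour (-5.42 without papilloma 1 and -4.25 without papilloma 2, with 0.5 CPM added).

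Of 17 other protease, inhibitor and deiminase genes, 10 rose and 2 fell in papilloma by edgeR (unadjusted 11 and 4, DESeq2 11 and 3) and 1 rose and 9 fell in the tumour (unadjusted 1 and 10, DESeq2 2 and 10), with medians of 1.18 and -1.31. The kallikrein protease genes Klk14 and Klk6 rose most in papilloma, by 9.14 ± 0.60 and 6.44 ± 0.44, and the deiminase genes Padi1 and Padi4 fell. In the tumour Klk5 and Klk7, kallikreins that cleave corneodesmosin, were at -7.16 ± 0.28 and -4.79 ± 0.40, and Padi4 rose by 1.94 ± 0.20. Of 11 desmosome genes, the partners of corneodesmosin, 6 rose and 0 fell in papilloma by edgeR (8 and 0 unadjusted, 9 and 0 by DESeq2), led by Dsc2 and Dsg1b at 3.56 ± 0.54 and 3.28 ± 0.38. In the tumour 0 rose and 4 fell (1 and 5 unadjusted, 1 and 4 by DESeq2), led by the desmosomal cadherin genes Dsc1 and Dsg1a at -5.76 ± 0.33 and -4.41 ± 0.30.

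Barrier lipid genes moved with the 9 genes in both comparisons. Of 15 matched, 14 rose and 0 fell in papilloma by edgeR (15 and 0 unadjusted and by DESeq2; median 1.89), and 0 rose and 15 fell in the tumour (the same unadjusted and by DESeq2; median -2.91). The lipoxygenase gene Alox12b rose by 3.86 ± 0.66 (3.09 without papilloma 1 and 4.33 without papilloma 2) and the dehydrogenase gene Sdr9c7 by 3.18 ± 0.28, and in the tumour the sphingomyelinase gene Smpd1 was at -3.98 ± 0.40 and Aloxe3 at -3.83 ± 0.43. Of 13 regulators of terminal differentiation, 4 rose and 1 fell in papilloma by edgeR (7 and 2 both unadjusted and by DESeq2), and 0 rose and 8 fell in the tumour (1 and 9 unadjusted, 1 and 10 by DESeq2). The transcription factor genes Grhl3 and Ovol1 rose by 2.33 ± 0.32 and 1.42 ± 0.35 in papilloma and Gata3 fell by 1.55 ± 0.27. In the tumour Gata3 was at -2.97 ± 0.33 and Ovol1 at -2.49 ± 0.37.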

How the data were processed

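RNA of 6 mouse libraries was counted by the authors. Per the labels' protocols, total RNA was taken up in Qiazol, purified on miRNeasy columns and prepared for SOLiD sequencing using a NEBNext small library set. The deposited table gives, per the file headers, a raw count and an RPKM value per gene model and library, with mm9 named in the submitters' processing notes. Which aligner and counter made them, and whether strand was used, is not given in the sources used here. The deposited RPKM values correspond to the counts divided by length and by 99.2% to 99.6% of the library total.

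Counts were tested with edgeR 4.0.16 (limma 3.58.1, R 4.3.3; quasi-likelihood, TMM over 6 libraries, default filter by group) on the 4 biopsies together (common dispersion 0.0773, prior degrees of freedom 3.8), with Benjamini-Hochberg adjustment over 16353 genes and a threshold of 0.05. SE is the absolute log2 fold change divided by the square root of F. Alternatives used DESeq2 1.42.0, other scalings, filters and libraries. Ratios without a papilloma add 0.5 CPM. The text names all 9 genes, the 2 largest rises and falls per list and the 3 most alike genes per member. The members and lists were chosen with earlier results of these data known. The background bound, the motifs and the comparisons of cultures with the tumour and of papilloma 1 with papilloma 2 were added after seeing the data. Single libraries were compared by ratio, with exact Clopper-Pearson intervals; these reads carry no stated molecular identifiers, so intervals and floors cover counting error only.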

Additional observations from a re-analysis of the deposited data

How the results depend on the processing

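The 9 calls for papilloma against skin and the 8 for tumour against papilloma were kept under DESeq2's size factors, total-count scaling, no filter, all 6 libraries in the fit and DESeq2's Wald test, and Tgm1 was called as a ninth in the tumour under the last 3. No log2 fold change of the 9 genes changed sign under any alternative or without either papilloma. Scaling by total counts alone gave 1015 genes higher and 3484 lower in papilloma; that scaling uses no factor for library composition. With no minimum of 10 CPM, 1 gene, Casp14, was at least 4-fold higher in mSCC-38 than in mSCC-20, from a count at background in mSCC-20. No paired analysis was possible because papilloma alone has replicate 2. A fit without a papilloma leaves no residual degree of freedom and gave values only. Skin, the tumour and each culture are single libraries, so their values carry no replicate error. Low counts limit Tgm5 and Tgm3 in both cultures, Casp14 in mSCC-20 and Tgm1, at 16 counts, in mSCC-38. All of these but Tgm5 are also at background there, as are Cdsn in both cultures and Asprv1 in mSCC-38.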
